A study of Mus musculus with 4 samples.

Results

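The nuclear genes of the respiratory chain and of ATP synthase were examined in cardiac progenitor cells with and without Isl1, a transcription factor with LIM domains and a homeodomain that marks progenitors of the second heart field. The genes were taken by symbol: every symbol that begins with Nduf, Uqcr or Atp5 or with Cox4 to Cox8, together with Sdha, Sdhb, Sdhc and Sdhd, 93 of the 20701 symbols in the table. Grouped by the start of the symbol, they comprised 38 subunits and 8 assembly factors of complex I, 4 genes of complex II, 8 of complex III, 18 of complex IV and 17 of complex V. The counts and medians by complex follow these symbols, although some members, such as Ndufa4 and Atp5sl, are now assigned elsewhere. The choice of symbols used names only, under a rule set with earlier results of these data known. Each symbol was represented by its most counted transcript entry. After the filter on low counts, 86 of the 93 were tested among 12715 genes. The 7 that were not tested were Atp5g1, Atp5l, Cox6a2, Cox7b2, Cox8b, Cox8c and Ndufs5.

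Mouse embryonic stem cells of the line E14 Tg(Nkx2-5-EmGFP), which carry a green fluorescent reporter of the cardiac gene Nkx2-5, were differentiated, and reporter-positive cells were sorted on day 5. Polyadenylated RNA was sequenced in 2 libraries per group, here called control and Isl1_KO. The study's methods describe 2 control clones and 2 Isl1-/- clones made by CRISPR/Cas9, which the sample titles do not mention. The reporter, the feeder-supported stem cell culture and the sort were shared by both groups, so each library holds the cells that switched the reporter on. The sample titles describe a knockout and the design text of the series a knockdown, and the titles were followed.

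Complexes I and II pass electrons from NADH and succinate to ubiquinone, complex III hands them to cytochrome c, complex IV reduces oxygen, and ATP synthase, or complex V, uses the proton gradient that results. Most subunits are encoded in the nucleus, and several of complex IV exist as isoform pairs, with a form restricted to heart and skeletal muscle beside a form made in most tissues. Maturing cardiomyocytes build up this machinery and bring in the muscle isoforms. The subunits that the mitochondrial genome encodes do not fall under the symbols chosen and were not analysed here.

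In every list of 4 values below the order is control 1, control 2, Isl1_KO 1 and Isl1_KO 2. The library totals were 8821517, 9147425, 13186109 and 11388333 counts over 1 transcript entry per symbol. Isl1 itself stood at 309, 326, 17 and 24 counts, which gives -4.39 on the log2 scale (SE 0.21, n = 2 and 2, adjusted p = 0.00277 in edgeR), in the direction of the labels. Across 12530 genes the control libraries differed from each other by 1.04 times the counting noise and the Isl1_KO libraries by 2.56 times (12656 genes), so most of the spread came from the Isl1_KO libraries. Whether the control libraries are as independent as separate clones cannot be told from the counts. Nkx2-5, whose reporter was used for the sort, had 186, 181, 62 and 50 counts and was called lower (-2.16, SE 0.15, adjusted p = 0.00703 in edgeR). Of 6 cardiac progenitor genes, 4 were called lower (Nkx2-5, Mef2c, Hand2 and Tbx5), and the 6 summed to 671.5, 683, 306 and 280.1 CPM (counts scaled to the same library total). Among all 12715 genes tested, 247 were called lower and 64 higher. All 11 tested genes of a cardiomyocyte list of 12 were called lower in Isl1_KO, and the list summed to 2140, 2218, 182 and 128 CPM. A smooth muscle list summed to 2519, 2526, 2173 and 744.5 CPM and a fibroblast list to 2186, 2134, 1369 and 499 CPM, which sets Isl1_KO 2 apart from Isl1_KO 1. A blood list summed to 485, 493, 325 and 177 CPM, but its genes were split. Of the 6 tested, 3 had estimates below 0, the globin genes Hbb-bh1, Hba-x and Hbb-y, and 3 above 0, Runx1, Gata1 and Klf1. Runx1 was called higher (0.57, SE 0.07, edgeR adjusted p = 0.0335). An endothelial list, with 4 of 6 estimates below 0, summed to 378, 377, 334 and 372 CPM. A pluripotency list summed to 31.9, 32.9, 26.5 and 50.4 CPM and an endoderm list to 55.4, 54.9, 53.3 and 28.2 CPM. No gene of these lists was called. In such bulk samples a smaller share of one kind of cell and less RNA per cell cannot be told apart, and the part that cell composition had in the results below was not tested.

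No respiratory chain gene was called different in the Isl1_KO cells, where few of all genes tested were called. Of the 86 genes tested, 0 were called at an adjusted p under 0.05 by edgeR's quasi-likelihood test with Benjamini-Hochberg adjustment. The same test called 2.45% of all genes tested, and at so low a share 0 of 86 does not set these genes apart. DESeq2 also called 0, and 0 of 91 met the study's own criteria on fold change and unadjusted p in DESeq2, which 5.89% of all genes met. The 95% interval of the fold change lay within 1.5-fold in either direction for 67 of the 86, and for 6889 of all 12715 genes tested. The lowest adjusted p was 0.103, for the assembly factor Ndufaf2. Without Isl1_KO replicate 1 the number called was 30 and without Isl1_KO replicate 2 it was 20, in fits that let the lone Isl1_KO library vary no more than the closely similar control pair and that called 6350 and 4176 of all genes.

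Most estimates were small and positive. The estimate was above 0 for 72 of the 86 genes (83.7%), against 49.6% of all genes tested, with a median log2 fold change of 0.13 (1.10-fold) against -0.003 over all genes. The unadjusted p was under 0.05 for 13 genes (15.1%), each with the higher value in Isl1_KO, where 11.0% of all genes tested passed in that direction. Both Isl1_KO libraries lay above both control libraries for 48 genes (55.8%), where 29.1% of all genes did, and below them for 1 gene, Cox7a1, where 29.0% of all genes did. Single genes whose groups did not overlap, named below, are to be read against these shares. As a share of all counts the 93 genes together took 0.706% and 0.697% of the control libraries and 0.744% and 0.796% of the Isl1_KO libraries, with exact 95% binomial intervals that cover counting error only of 0.701 to 0.712%, 0.692 to 0.703%, 0.739 to 0.749% and 0.791 to 0.802%. No test over the list was made.

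**Figure D1:**
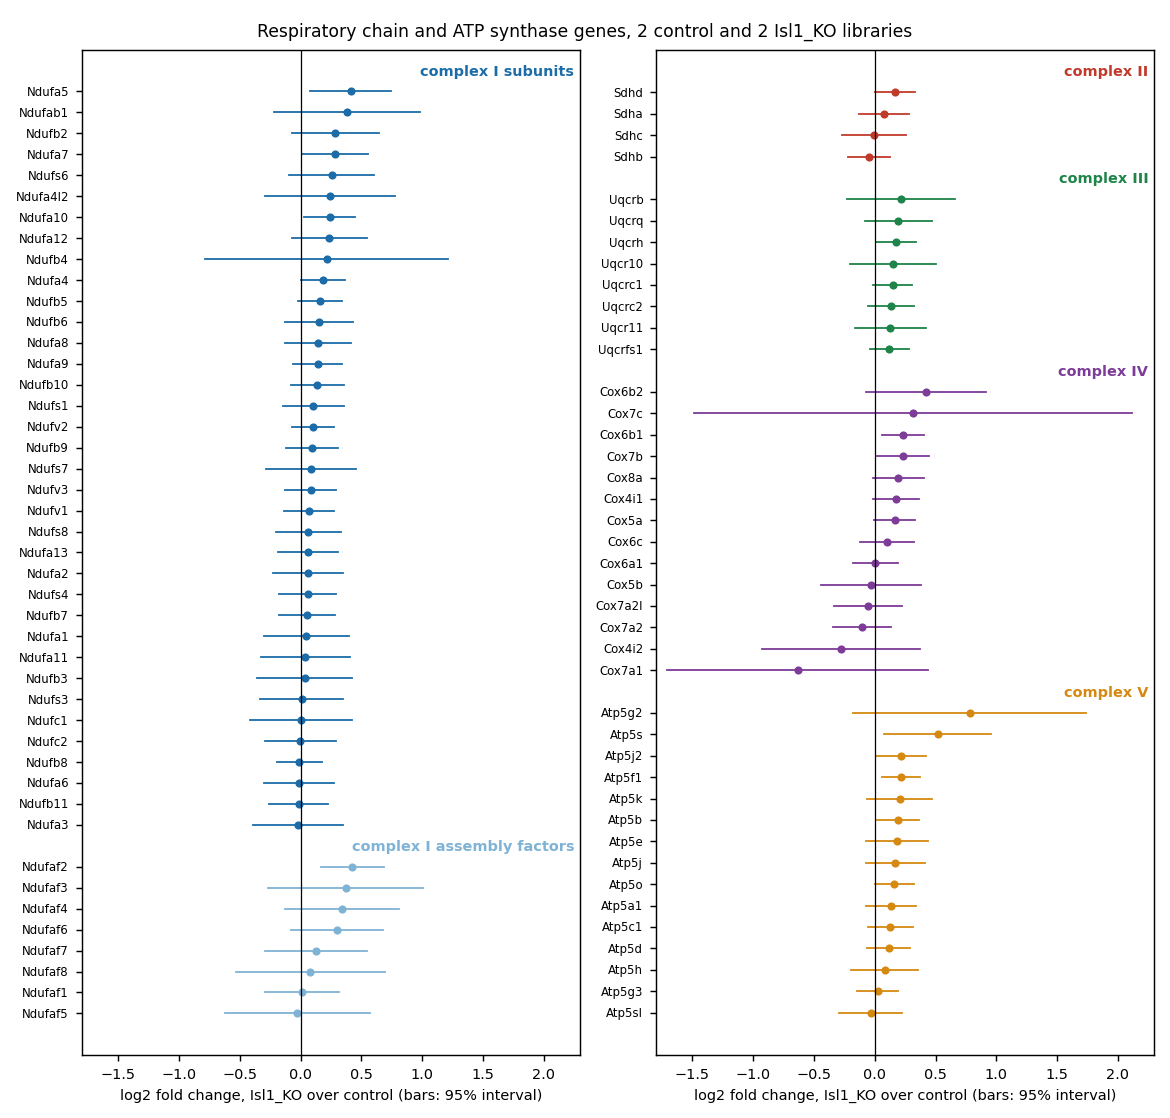
Log2 fold change (Isl1_KO over control, horizontal axis) of the genes tested, 1 of the 86 left out, grouped by complex, each point with its 95% interval from edgeR, 2 libraries per group. Most points lie between 0 and 0.4, the intervals that reach over 1 log2 unit to each side are those of Cox7a1 and Cox7c, and 0 of the 86 passed the adjusted threshold.

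Complex I is the NADH dehydrogenase. Its 37 tested subunits had a median log2 fold change of 0.08 (range -0.02 to 0.41), with 32 above 0 and 5 below. Of the 37, 4 had an unadjusted p under 0.05 in edgeR, each higher in Isl1_KO, where 11.0% of all genes tested passed in that direction. Measured per length in RPKM (CPM per kilobase of transcript), Ndufa4 was the most abundant, at 158, 160.1, 175 and 187. Both Isl1_KO values of Ndufa4 lay above both control values, by 0.18 on the log2 scale (SE 0.07, edgeR adjusted p = 0.208). Ndufa4 was first assigned to complex I and is now counted as a subunit of cytochrome c oxidase. The accessory subunit Ndufa5 had the largest estimate of the group, with 60.5, 64.2, 74.7 and 91.4 RPKM. Its groups did not overlap, the log2 fold change was 0.41 (SE 0.13), and the adjusted p was 0.158 in edgeR. Ndufa3, another accessory subunit, had the lowest fold change, -0.02 (SE 0.15), and its control and Isl1_KO values overlapped at 54.6, 62.8, 62.5 and 53.1 RPKM. Ndufv1 and Ndufs1 are core subunits that carry the flavin or iron-sulfur clusters, and are named after their values were seen. The log2 fold change was 0.07 for Ndufv1 (SE 0.08) and 0.10 for Ndufs1 (SE 0.10).

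The 8 complex I assembly factors, which build the enzyme without being part of it, had a median log2 fold change of 0.22, with 7 above 0. Ndufaf2, which acts late in assembly, had 190, 207, 392 and 338 counts, or 32.0, 33.6, 44.7 and 43.5 RPKM. Both Isl1_KO libraries were above both controls, and the log2 difference was 0.43 (SE 0.10, 95% interval 0.17 to 0.69, edgeR adjusted p = 0.103). Ndufaf5 had the lowest estimate of the 8, -0.03 (SE 0.24), from 91, 65, 103 and 106 counts.

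Complex II, succinate dehydrogenase, which also serves the citric acid cycle, had the median nearest to 0, 0.04 over its 4 genes. Sdha, the flavoprotein that oxidises succinate, stood at 99.6, 97.8, 98.2 and 110.3 RPKM, with a log2 fold change of 0.08 (SE 0.08). Sdhb, the iron-sulfur subunit, stood at 89.9, 90.6, 90.1 and 84.6 RPKM, with -0.05 (SE 0.07), and the upper end of its interval was a fold change of 1.09. In both genes the groups overlapped. Of the membrane anchors, Sdhc had an estimate of -0.01 (SE 0.10). Sdhd stood at 100.3, 95.6, 108.5 and 111 RPKM, with groups that did not overlap and an estimate of 0.17 (SE 0.07, edgeR adjusted p = 0.215).

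In complex III all 8 genes taken by symbol had positive estimates, from 0.12 to 0.22, with a median of 0.15. Cytochrome c1 (Cyc1), a complex III subunit outside the symbols chosen, had 0.03 (SE 0.08). Its groups overlapped, at 86.7, 91.8, 87.2 and 94.6 RPKM. Uqcrh, the hinge protein at the cytochrome c side, was the most abundant, at 151, 148, 166 and 171 RPKM, and its groups did not overlap (log2 fold change 0.17, SE 0.07, edgeR adjusted p = 0.202). The Rieske iron-sulfur protein Uqcrfs1 stood at 72.2, 74.6, 79.6 and 80.1 RPKM, with the smallest estimate of the 8 (0.12, SE 0.06). Uqcrb, a ubiquinone-binding subunit, had the largest estimate (0.22, SE 0.18), on 78, 94, 156 and 118 counts that overlapped once scaled. Taken singly, the libraries had a median deviation from the control mean of 0.14 in Isl1_KO 1 and 0.17 in Isl1_KO 2.

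Complex IV, cytochrome c oxidase, had the widest range, from -0.63 to 0.42, with a median of 0.13 over 14 tested genes, of which 9 were above 0. Without the tissue-restricted isoforms the median was 0.16 over 11 genes. Cox4i1, the ubiquitous form of a subunit that binds regulators of the enzyme, was the most abundant at 335, 311, 353 and 374 RPKM (log2 fold change 0.17, SE 0.07, edgeR adjusted p = 0.247). Cox6b1, which joins the monomers of the enzyme, had 197, 198, 224 and 241 RPKM and an estimate of 0.23 (SE 0.07, adjusted p = 0.144). The estimate was 0.23 for Cox7b (SE 0.08) and 0.19 for Cox8a (SE 0.08), and in each the Isl1_KO libraries were the higher. The groups overlapped for Cox6a1, at 128, 136, 131 and 133 RPKM (0.01, SE 0.07), and for Cox7a2, at 91.5, 94.2, 80.7 and 92.2 RPKM (-0.10, SE 0.09).

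Complex V, the ATP synthase, contributed the most reads, 0.324%, 0.321%, 0.345% and 0.374% of the libraries. Its median was 0.17 over 15 tested genes, with 14 above 0, where 49.6% of all genes tested were. Both Isl1_KO libraries lay above both controls for 12 of the 15, where 29.1% of all genes did. Atp5b, the catalytic beta subunit and the most abundant of the 93 genes, stood at 654, 661, 733 and 769.5 RPKM. Its Isl1_KO libraries were both above its control libraries, by 0.19 on the log2 scale (SE 0.07, edgeR adjusted p = 0.184). Atp5sl, named for its likeness to a coupling factor of the synthase and since described as a factor in complex I assembly, had the lowest estimate, -0.03 (SE 0.10). Atp5s had 65, 84, 153 and 138 counts and an estimate of 0.52 (SE 0.17, edgeR adjusted p = 0.174), and is named after its values were seen. It lies on chromosome 12 in a stretch whose 40 neighbouring tested genes had a median log2 fold change of 0.45, so that its value was close to that of its neighbours.

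The 3 genes Atp5g1, Atp5g2 and Atp5g3 encode the same mature c subunit of the rotor ring, with different import sequences. Atp5g3 carried nearly all of the reads, at 297, 286, 303 and 288 RPKM, with a log2 fold change of 0.02 (SE 0.07). Atp5g1 had 4, 4, 6 and 7 counts, and Atp5g2 had 6, 8, 16 and 17 counts. The Atp5g2 estimate, 0.78, was the largest of all members and its interval ran from -0.18 to 1.74 (edgeR adjusted p = 0.289), so a direction could not be read at this depth. Both genes have near-identical copies elsewhere in the genome, described with the other copies.

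Of the muscle isoforms of complex IV, Cox6a2 and Cox8b were at the limit of detection in all 4 libraries, controls included, and Cox7a1 was low but above it. Cox6a2, the heart and skeletal muscle partner of Cox6a1, had 2, 3, 0 and 0 counts. Cox8b, the muscle partner of Cox8a, had 2, 0, 0 and 1. Both genes stayed at or under 3 counts, the floor used here (0.23 to 0.34 CPM by library), so no fold change is given, and a fall of Cox6a2 or Cox8b in Isl1_KO was not detectable at this depth. Cox7a1, the muscle partner of Cox7a2, was measurable, at 14, 17, 10 and 17 counts, or 4.41, 5.17, 2.14 and 4.10 RPKM. Its log2 fold change was -0.63 (SE 0.42, 95% interval -1.71 to 0.44, edgeR adjusted p = 0.419), the lowest of the 86 genes. Once scaled, both Isl1_KO values were below both control values, as for 29.0% of all genes tested, though the raw counts overlapped. For comparison, the contractile genes Myh6 (2205, 2333, 30 and 21 counts) and Ttn (3404, 4153, 46 and 34 counts) were abundant in the same control libraries, and were called lower (log2 fold change -6.92 and -7.01).

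Compared per length, the ubiquitous form outweighed the muscle form in each pair and each library. Cox7a2 exceeded Cox7a1 by 18.2-fold to 37.8-fold over the 4 libraries, Cox6a1 exceeded the floor of Cox6a2 by 245-fold to 372-fold, and Cox8a exceeded the floor of Cox8b by 109-fold to 180-fold. The log2 ratio of muscle to ubiquitous form, with 2 reads added to each count, differed between Isl1_KO and control by -1.62 for Cox6a2 over Cox6a1, by -0.55 for Cox7a1 over Cox7a2 and by -0.85 for Cox8b over Cox8a. An exact two-sided permutation test of 2 against 2 libraries gave p = 0.333, 0.333 and 0.667 for them, or 0.599, 0.599 and 0.858 after adjustment over 9 pairs, and 0.333 is the smallest p this design can give. The first and the last of these differences rest on counts at the floor, where the added reads and the library depth alone give a negative value: with 0 counts of the restricted form in all 4 libraries, Cox7b2 over Cox7b gave -0.68 and Cox8c over Cox8a gave -0.64. The values for Cox6a2 and Cox8b are therefore not read as changes.

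**Figure D2:**
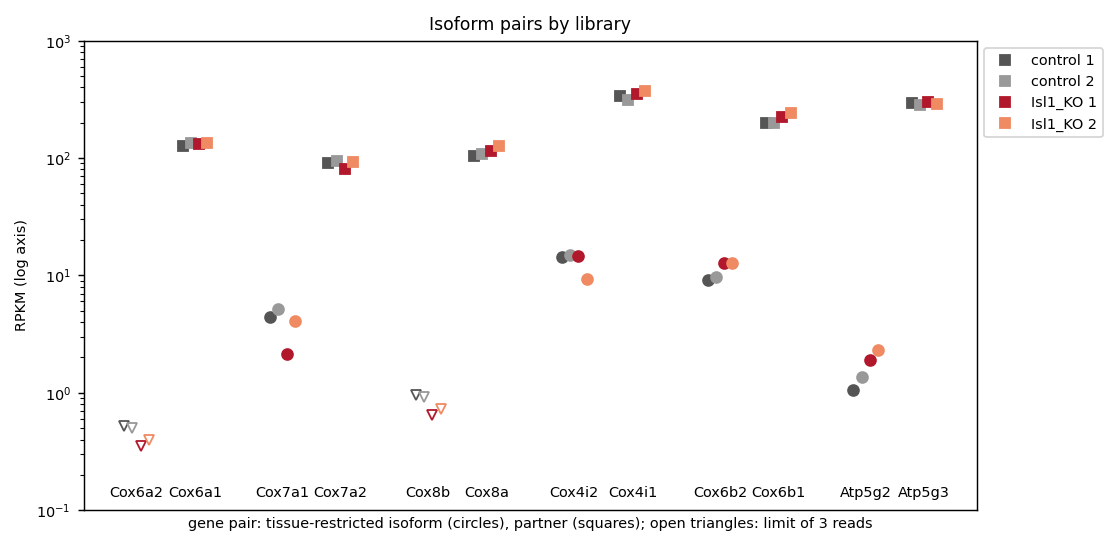
RPKM (log axis) in the 4 libraries for 6 pairs of genes, the restricted or minor form as circles and its partner as squares, with open triangles at the level of 3 reads where a library had 3 reads or fewer. Cox6a2 and Cox8b are at that limit in all 4 libraries, Cox7a1 lies between 2.14 and 5.17, and every partner shown lies above 80.

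The other restricted isoforms were low as well. Cox4i2, a form known from lung and from the response to low oxygen, had 91, 98, 138 and 77 counts. On the RPKM scale it stood at 14.3, 14.9, 14.7 and 9.28, so that only Isl1_KO 2 was apart from the other 3 (log2 fold change -0.28, SE 0.26, edgeR adjusted p = 0.554). Cox6b2, a testis form, had 37, 41, 76 and 67 counts and an estimate of 0.42 (SE 0.19, adjusted p = 0.268), with non-overlapping groups. The testis forms Cox7b2 and Cox8c had 0 counts in all 4 libraries, which allows up to 3 counts per library. Ndufa4l2, a relative of Ndufa4 induced by low oxygen, had 46, 42, 82 and 61 counts (0.24, SE 0.21). Cox7a2l, which holds supercomplexes together, was nearer to its relative Cox7a2, which exceeded it by 2.76-fold to 3.26-fold, and had an estimate of -0.06 (SE 0.11).

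The promoters of muscle and ubiquitous forms differ in sequence, and are shown for the pairs with both windows in the RefSeq table (GRCm38.p6) and for Cox6a1, whose partner Cox6a2 was not matched there. Each window runs from 250 bases before to 50 bases after the annotated start and is written 5′ to 3′ on the strand of the gene. Capitals mark matches, on either strand, to GCGCANGCG (for the nuclear respiratory factor NRF1), CCGGAAG (for ETS factors such as GABPA), AAGGTCA (for oestrogen-related receptors) and CTANNNNTA (a loose spelling for MEF2), with overlapping matches run together. Each window occurs once, in full, on the same chromosome of NCBIM37 (mm9), the build of the counts: Cox7a1 at chr7:30968940-30969239 (plus strand), Cox7a2 at chr9:79607611-79607910 (minus), Cox8b at chr7:148086296-148086595 (minus), Cox8a at chr19:7292057-7292356 (minus) and Cox6a1 at chr5:115798918-115799217 (minus).
Cox7a1: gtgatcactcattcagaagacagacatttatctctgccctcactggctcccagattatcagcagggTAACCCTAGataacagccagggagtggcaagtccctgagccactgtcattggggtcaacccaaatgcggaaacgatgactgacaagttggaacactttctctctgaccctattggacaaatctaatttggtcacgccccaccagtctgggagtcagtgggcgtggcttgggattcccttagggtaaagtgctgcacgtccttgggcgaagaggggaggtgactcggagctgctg
Cox7a2: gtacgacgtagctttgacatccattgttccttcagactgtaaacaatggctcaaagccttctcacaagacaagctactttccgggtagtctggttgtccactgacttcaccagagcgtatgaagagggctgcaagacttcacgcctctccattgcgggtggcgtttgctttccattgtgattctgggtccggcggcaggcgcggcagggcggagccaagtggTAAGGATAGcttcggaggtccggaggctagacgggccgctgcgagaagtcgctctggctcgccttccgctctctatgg
Cox8b: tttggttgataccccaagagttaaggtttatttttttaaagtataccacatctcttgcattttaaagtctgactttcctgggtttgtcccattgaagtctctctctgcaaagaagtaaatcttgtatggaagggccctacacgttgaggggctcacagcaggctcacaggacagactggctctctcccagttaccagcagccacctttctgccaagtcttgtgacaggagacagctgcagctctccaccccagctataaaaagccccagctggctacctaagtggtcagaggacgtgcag
Cox8a: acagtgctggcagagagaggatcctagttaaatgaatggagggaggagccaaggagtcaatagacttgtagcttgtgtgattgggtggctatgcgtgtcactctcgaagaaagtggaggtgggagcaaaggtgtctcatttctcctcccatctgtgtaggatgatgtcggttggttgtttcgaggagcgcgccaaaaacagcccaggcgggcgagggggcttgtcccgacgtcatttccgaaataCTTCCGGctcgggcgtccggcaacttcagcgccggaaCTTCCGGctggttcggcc
Cox6a1: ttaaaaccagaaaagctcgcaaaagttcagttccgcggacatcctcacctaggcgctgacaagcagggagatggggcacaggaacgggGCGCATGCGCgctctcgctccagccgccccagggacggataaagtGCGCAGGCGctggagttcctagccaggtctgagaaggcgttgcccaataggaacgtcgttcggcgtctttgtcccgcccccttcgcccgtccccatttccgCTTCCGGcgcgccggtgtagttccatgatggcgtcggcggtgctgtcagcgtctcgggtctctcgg

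The muscle forms shown had fewer CpG dinucleotides than the ubiquitous forms shown. Their number was 0.333 of that expected from the base composition in Cox7a1 and 0.115 in Cox8b. It was 0.833 in Cox7a2, 0.842 in Cox8a and 1.08 in Cox6a1. Cox7a1 was near the median of 0.389 over all genes with a window, and Cox7b, the partner of the testis form Cox7b2, had 0.368. Cox8a held 2 matches to the ETS letters, and Cox6a1 held 3 matches to the NRF1 letters, the first 2 overlapping, and 1 to the ETS letters. Cox7a1, Cox8b and also the ubiquitous form Cox7a2 held no match to the NRF1, ETS or oestrogen-related receptor letters, and Cox7a1 and Cox7a2 each held 1 match to the MEF2 letters and Cox8b none. Of the 93 genes, 77 had a promoter window, and 28.6% of these held the NRF1 letters and 23.4% the ETS letters, against 7.03% and 9.93% of all 27025 genes with a window. The oestrogen-related receptor letters were in 10.4% against 5.38%, and the loose MEF2 letters in 16.9% against 23.5%. The median CpG ratio was 0.833 over the 77 and 0.389 over all, and CpG-rich promoters hold more matches to CG-rich letters. A match describes letters only and no binding was measured here.

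Regulators of mitochondrial genes were examined as a list of 21 genes, since such factors are known to act on many respiratory chain promoters. Of the 20 tested, 2 were called lower and 1 higher, where 2.45% of all 12715 genes tested were called, 247 lower and 64 higher. Ppargc1a, the coactivator PGC-1alpha that drives oxidative gene expression in heart and muscle, had 14, 20, 0 and 0 counts, at least 7.7-fold lower against the floor of 3 counts per library (edgeR adjusted p = 0.0454). Esrrg, the oestrogen-related receptor gamma, had 49, 67, 3 and 3 counts, a control over Isl1_KO ratio of 26.4 (scaled group sums, 95% interval 11.8 to 73.5, counting error only, edgeR adjusted p = 0.00902). In Isl1_KO both genes were at or under the floor, so they passed the filter on low counts through their control counts alone. Their p-values are conditional on that selection, and neither gene was tested when 10 counts were required in every library. Ppargc1a was called in 9 of 10 alternatives and Esrrg in 9 of 11. Without control replicate 1 the adjusted p was 0.39 for Ppargc1a and 0.098 for Esrrg. Without control replicate 2 it was 0.125 for Esrrg, and Ppargc1a has no value there.

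Polg, the catalytic subunit of the mitochondrial DNA polymerase, was the gene called higher, with 3246, 3430, 7061 and 5865 counts (log2 fold change 0.50, SE 0.07, edgeR adjusted p = 0.0371, and 0.584 and 0.557 without control replicate 1 and 2). The remaining factors were not called. Ppargc1b, the sister coactivator of Ppargc1a, had 14, 15, 37 and 64 counts (1.36, SE 0.43, adjusted p = 0.156), both Isl1_KO libraries being the higher, and was called in 1 of 12 alternatives, the fit without Isl1_KO replicate 1. Esrra, the receptor that is most often tied to respiratory genes, had an estimate of -0.03 (SE 0.14), Nrf1 of 0.09 (SE 0.07) and Tfam, which packages and helps to transcribe mitochondrial DNA, of 0.19 (SE 0.11).

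**Figure D3:**
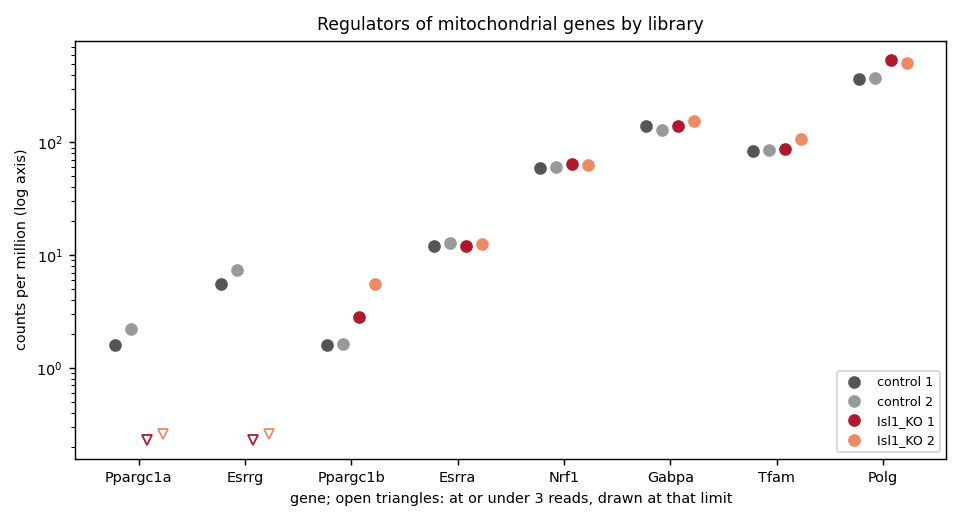
CPM (log axis) of 8 regulators of mitochondrial genes in the 2 control and 2 Isl1_KO libraries, with open triangles at the limit of 3 reads where a library had 3 reads or fewer. Ppargc1a and Esrrg are at that limit in both Isl1_KO libraries and above it in both controls, Polg is higher in both Isl1_KO libraries, and Esrra, Nrf1 and Tfam have log2 fold changes of 0.19 or less.

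Counts of called genes that work beside the chain are read against the 2.45% called among all genes tested. Among the electron carriers, flavoprotein links and the complex III subunit Cyc1, 0 of 8 tested were called. Cyc1 had 0.03 (SE 0.08), and cytochrome c (Cycs) had -0.03 (SE 0.25) on 37, 31, 44 and 47 counts. Of the assembly factors of complexes II to V 0 of 32 were called (median 0.18, 22 above 0), and of the other complex I assembly factors 0 of 8 (median 0.11). In the citric acid cycle 1 of 16 was called, Dlst, a subunit of the 2-oxoglutarate dehydrogenase, with 2197, 2197, 4603 and 4078 counts (0.53, SE 0.06, edgeR adjusted p = 0.0288, and 0.51 and 0.521 without control replicate 1 and 2). Dlst also lies on chromosome 12, where its 40 neighbours had a median of 0.39.

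Among carriers and phosphate transfer enzymes 0 of 15 tested were called. The adenine nucleotide translocators, which exchange ATP for ADP, differed in their estimates: Slc25a4, the form typical of heart, had 0.003 (SE 0.07), and Slc25a5, the form of growing cells, 0.47 (SE 0.10, edgeR adjusted p = 0.0835), with 403, 426, 778 and 791 counts. Ckmt2, the mitochondrial creatine kinase of the sarcomere, had 0 counts in all 4 libraries. Ckb, the brain-type creatine kinase, had 268, 225, 148 and 79 counts (-1.58, SE 0.26, adjusted p = 0.0582), was called lower in 7 of 12 alternatives, DESeq2 among them, and is named after its values were seen.

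Respiratory chain transcripts are short, and transcript length moved with the fold change in the rest of the genome too. The median transcript length was 733 bases for the 93 genes and 2400 for all symbols, and 61 of the 93 (65.6%) were under 1000 bases, against 16.1% of all. Among genes that are not members, the median log2 fold change fell with length, from 0.16 under 500 bases (n = 52) through 0.06, 0.05 and 0.01 to -0.06 at 4000 bases or more (n = 4067). The members stood above the other genes of their class in each class they occupy, at 0.18, 0.14, 0.12 and 0.09. Among abundant short transcripts, under 1000 bases and at least 30 CPM, the 30 members had a median of 0.15 with 80.0% above 0, and the 194 other genes had 0.13 with 73.2% above 0. When length was put into the fit as an offset, the medians became 0.02 for complex I subunits, -0.006 for complex II, 0.09 for complex III, 0.04 for complex IV and 0.08 for complex V. What lies behind the trend with length was not tested.

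**Figure D4:**
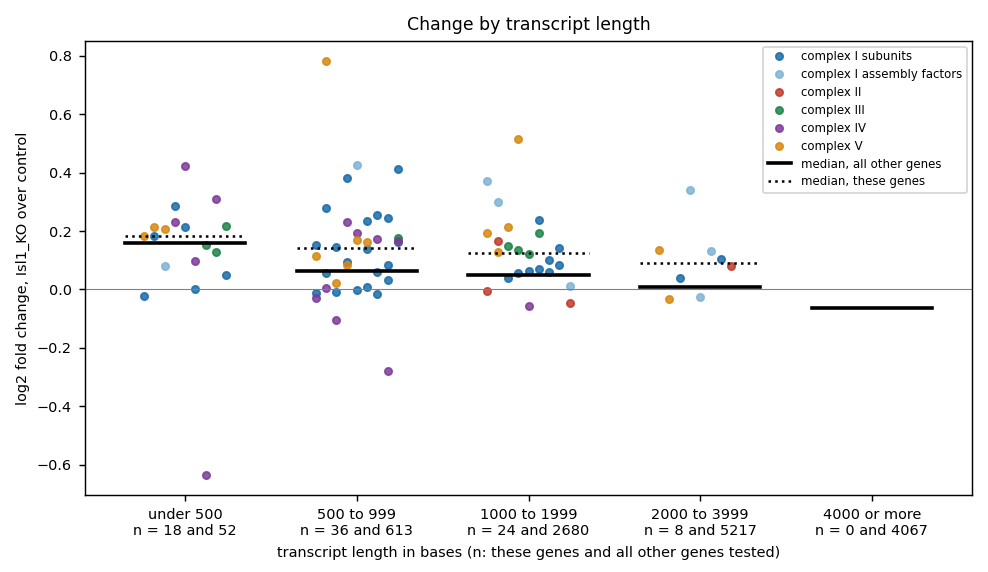
Log2 fold change (Isl1_KO over control) of the 86 members by class of transcript length, coloured by complex, with the median of the members (dotted) and of all other genes tested (solid) in each class and the number of each under the axis. The solid lines fall from 0.16 to -0.06 with length, and the dotted lines, from 0.18 to 0.09, lie above them in the 4 classes that hold members.

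Levels of some subunits are uncertain, since stretches of their transcripts also occur elsewhere in the genome and reads from them have several possible positions. Of 89 members with a transcript in the annotation, 61 had no 50-base word elsewhere in NCBIM37, 20 had over 10% of their words elsewhere, and 12 had over 40%. The median level was 30.9 RPKM over the 20 and 62.6 RPKM over the 61. Atp5g2 had 100% of its words elsewhere, Atp5l 89.4%, Ndufs5 80.0% and Atp5g1 66.2%, and these 4 had from 0 to 17 counts per library. Genes in this paragraph are named for these percentages. Cox7c, with 48.2% elsewhere and 5 copies, had 2, 11, 10 and 12 counts and the largest SE of the members (0.71). Atp5h (65.5%) and Cox5b (62.7%) had mean levels of 57.4 and 57.8 RPKM in control. Cox6a2, Cox7a1 and Cox8b had 0% elsewhere. How the aligner treated reads with several positions was not given in the sources used here, and the part of such reads in these low counts was not tested.

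**Figure D5:**
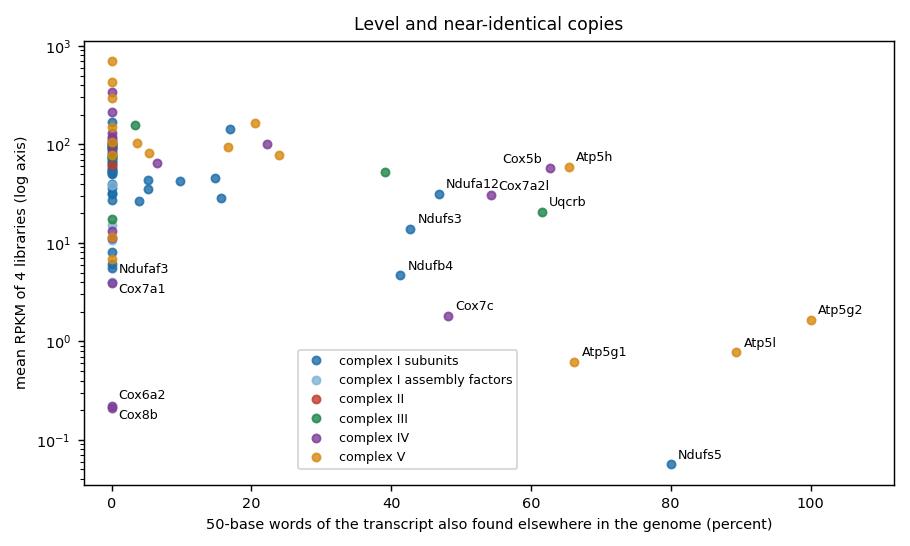
Mean RPKM of the 4 libraries (log axis) against the percentage of 50-base words of the transcript found elsewhere in the genome, coloured by complex, for members with a transcript in the annotation and at least 1 read. The members with over 40% elsewhere and those under 5 RPKM carry their names, and Atp5g1, Atp5g2, Atp5l, Cox7c, Ndufb4 and Ndufs5 combine a high percentage with a level under 5 RPKM, while Cox6a2 and Cox8b are low with 0% elsewhere.

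Exons of 16 members, some of them also among those with words elsewhere, share bases with another protein-coding gene, and reads of both strands were counted together. Atp5j, for example, overlaps Gabpa, the ETS factor named above, on the other strand, and Ndufb2 overlaps Adck2 and Braf. The values of such genes, and those of Gabpa, may include reads of the neighbour.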

How the data were processed

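RNA was measured in 2 control and 2 Isl1_KO libraries, grouped by their titles, which name the replicates. The authors mapped the reads to mm9 with STAR and counted exonic reads per RefSeq transcript on both strands with HOMER, without adjustment, and deposited these counts. The deposited RPKM came from edgeR and was used for a check only. The authors' deposited DESeq2 columns were not used: a signal (mean normalised count), log2 fold changes with standard errors, the Wald score, and p-values with adjusted p-values. Versions of the authors' tools were not given in the sources used here. The number of columns not matched to a sample was 0.

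Each of 20701 symbols was represented by its most counted entry over the libraries. edgeR 4.0.16 in R 4.3.3 gave TMM scaling, filtering by expression (12715 genes, of which 311 were called, 64 higher and 247 lower), quasi-likelihood tests and Benjamini-Hochberg adjustment at 0.05. DESeq2 1.42.0 was an alternative. The common biological coefficient of variation was 11.1%. RPKM in the text is TMM-scaled CPM per kilobase. Isoform ratios had 2 reads added and an exact permutation test. Copies were sought with blastn 2.17.0 in NCBIM37, and positions came from GENCODE vM1. The fitting was tested on simulated data.

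Named genes were Isl1, the isoform pairs, the Sdh genes, the most abundant member and the extremes of each complex, called genes of the lists and a set of carriers and regulators. The members, lists and rules were chosen with earlier results of these data known, and the progenitor genes and the alternative that leaves out members with copies were added after the data were seen. With 2 libraries a group, p-values measure the spread between these libraries, which may be technical, and precision is set by 8821517 to 13186109 counts per library. The values of 1 member are not reported here, though it is included in the counts and medians. Alternatives were the scaling, filter, entries, replicate block, length offset and each library left out.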

Additional observations from a re-analysis of the deposited data

How the results depend on the processing

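The number of members called was 0 under another scaling, DESeq2, a stricter filter, no filter, all transcript entries, a length offset and, as an alternative chosen after seeing the data, without members that had over 10% of 50-base words elsewhere. Leaving out 1 library gave 0 to 30: 0 without either control, 30 without Isl1_KO replicate 1 and 20 without Isl1_KO replicate 2. In these last fits the lone Isl1_KO library is assumed to vary like the control pair, and 6350 and 4176 of all genes were called. Without control replicate 1 or 2, 27 and 29 of all genes were called, against 311, with DESeq2 604, without a filter 492 and with all entries 464.

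Same-numbered libraries deviated from their group means with r = 0.0128 across 12715 genes. The control libraries differed by little more than counting noise (1.04 times), so this value cannot tell whether same-numbered libraries were paired. The replicate block called 0 members and 454 of all genes. Median log2 fold changes with a length offset, then with the block as well, were 0.019 and 0.019 for complex I subunits, 0.17 and 0.17 for its assembly factors, -0.0062 and -0.0060 for complex II, where the sign turned, 0.086 and 0.085 for complex III, 0.037 and 0.037 for complex IV, and 0.085 and 0.085 for complex V. For complex IV the median was also 0.092 with 10 counts in every library, 0.057 with DESeq2, 0.065 without a filter and 0.17 without members with copies.

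Leaving out 1 library gave medians of 0.083 to 0.12 for complex I subunits, 0.17 to 0.29 for assembly factors, 0.012 to 0.11 for complex II, 0.14 to 0.17 for complex III, 0.084 to 0.16 for complex IV and 0.16 to 0.21 for complex V. The difference of Cox6a2 over Cox6a1 was -3.02 with 0.5 reads added and -1.03 with 5, and -1.71 to -1.52 with 1 library left out. That of Cox7a1 over Cox7a2 was then -0.87 to -0.23 and that of Cox8b over Cox8a -1.40 to -0.29.

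Of 323 values of 27 named members under alternatives, 302 stayed on the same side of the threshold and 21 passed it, each without an Isl1_KO library. The sign differed in 21 values, none of them past the threshold. With 2 libraries a group, changes under 1.5-fold in single genes were seldom resolved, and genes at a few counts were not.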
